A study of Homo sapiens with 6 samples.

Results

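Growth factors of the VEGF and PDGF families were followed in 786-O, a cell line from a human clear cell renal carcinoma. The members were chosen by gene symbol: the VEGF ligand genes VEGFA, VEGFB, VEGFC and PGF, the PDGF ligand genes PDGFA, PDGFB, PDGFC and PDGFD, the angiopoietin-like gene ANGPTL4 and the VEGF receptor gene FLT1. All 10 were listed among the 17114 gene symbols of each table, and 8 of them passed the expression filter, among 11151 genes tested. One group of 3 libraries came from cells given a vehicle and the other from cells given XMU_MP_1, a compound that blocks MST1 and MST2, kinases of the Hippo pathway, with 786-O as the only cell line in both groups. The labels word the exposure as a transfection, and neither its dose nor its length is given in the sources used here. The title of the study names YAP, TEAD4, NF-κB and tumour growth, and the single comparison asks how the compound altered transcript levels.

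VEGF ligands are secreted proteins that act on receptor tyrosine kinases of endothelial cells. VEGF-A drives the growth of blood vessels, VEGF-C that of lymphatic vessels, and VEGF-B and placental growth factor bind the receptor FLT1. PDGF ligands form dimers that act on PDGFRA and PDGFRB of mural cells and fibroblasts, and PDGF-B from vessel walls recruits pericytes. Clear cell renal carcinoma is known for a dense vasculature: loss of VHL function, which 786-O cells share, leaves HIF-2 active, and VEGFA is among the genes that HIF turns on. ANGPTL4, another known HIF target and also a PPAR target, encodes a secreted inhibitor of lipoprotein lipase.

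Values are FPKM, counts of fragments corrected for transcript length and library total, so levels can be compared between genes. The read depth behind them is unknown, and summed FPKM ran from 454889 to 527709 per library. Log2 changes are XMU_MP_1 minus Vehicle on the log2(FPKM + 1) scale, which understates changes of low genes. They were tested with limma over all 11151 genes with Benjamini-Hochberg adjustment, at a threshold of 0.05. Of all genes tested, 25.9% were lower and 32.0% were higher with XMU_MP_1, 57.9% in all, and the median log2 change was 0.04. With every library rescaled to the same summed FPKM, 3448 genes were lower and 2252 higher, against 2886 and 3567 as deposited. List counts given below with equal summed FPKM go with the former, and shares over all tested genes are as deposited. The common sum was above that of every library, so the 1 added before the log weighed less. Changes with equal summed FPKM thus differ through both steps, most for low genes. Vehicle replicate 2 and XMU_MP_1 replicate 3 stood apart from the other libraries of their groups. The SD of log2 differences was 0.0928 between Vehicle replicates 1 and 3 and 0.0718 between XMU_MP_1 replicates 1 and 2, and 0.146 to 0.158 for the other pairs within a group. Whether replicates came from separate cultures is not in the labels, and p-values then reflect only library-to-library spread, perhaps technical.

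Most of the ligand transcripts were lower with XMU_MP_1, and the size of the fall differed widely among them. Of the 10 genes 8 were tested, and 2 were too low to be tested (FLT1 and PDGFD). Among the 8, 5 fell (PDGFB, VEGFC, VEGFA, PDGFC and PGF), 1 rose (PDGFA) and 2 did not pass the test (VEGFB and ANGPTL4). This stands beside 25.9% lower and 32.0% higher of all tested genes. PGF passed the expression filter only through the Vehicle group, where it was higher. Falls of a log2 change of -1 or beyond were found for PDGFB, VEGFC and VEGFA, and for 2.74% of all tested genes, and a rise of 1 or above for 0 of the members and 0.735% of all. Against a minimum fold of 1.5, 4 members were lower (VEGFA, VEGFC, PDGFB and PDGFC) and 4.08% of all tested genes, and 0 members were higher and 1.42% of all. The libraries of the groups did not overlap for 6 of the 8 tested members, 5 downward and 1 upward. The same held for 28.7% of all tested genes in the downward and 35.0% in the upward direction, 63.7% in all. These 6 members are those that passed the test, so the lack of overlap is not separate support. In bulk RNA, fewer cells making a transcript and less of it per cell cannot be told apart.

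**Figure D1:**
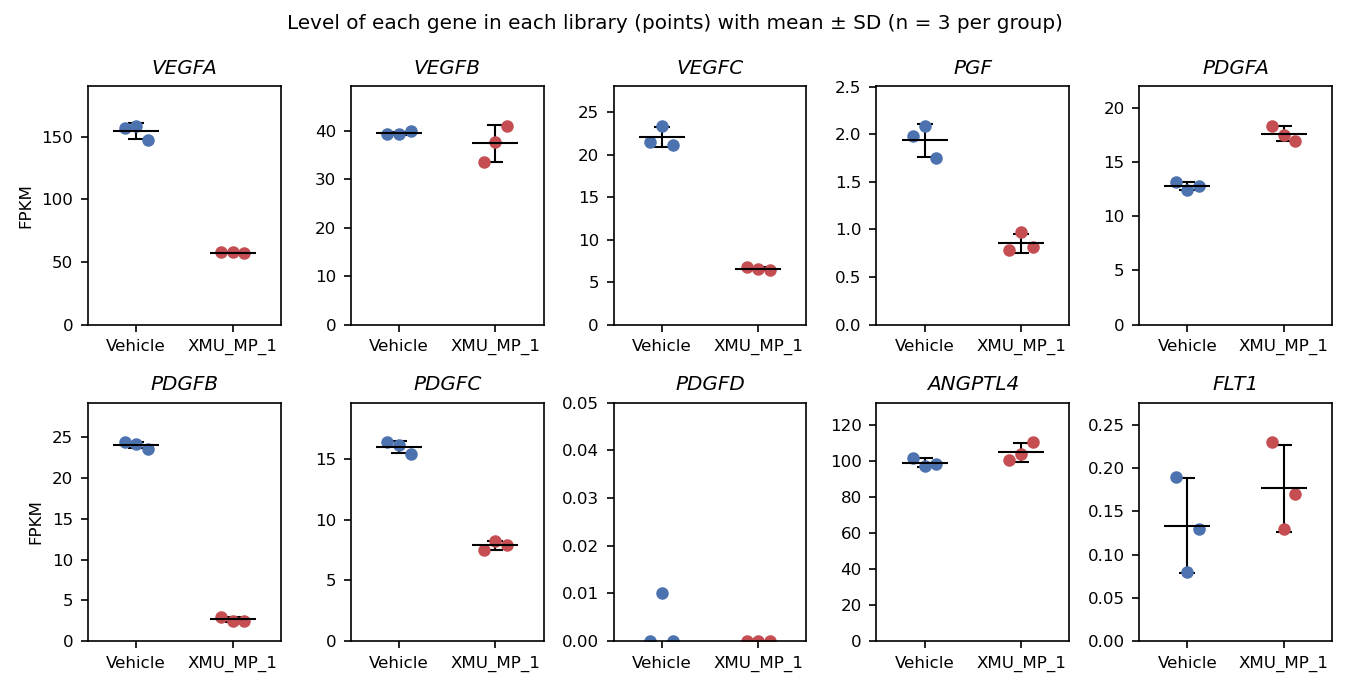
FPKM (vertical axes, each starting at 0) of the 10 genes in the 3 Vehicle and 3 XMU_MP_1 libraries. Points are libraries, long bars are means and whiskers are SD (n = 3), with points alone for PDGFD, and the groups lie apart for VEGFA, VEGFC, PGF, PDGFA, PDGFB and PDGFC.

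VEGFA (chromosome 6, 43770184 to 43786487, GRCh38) was the most abundant of these transcripts in Vehicle cells. It measured 157.06, 158.58 and 147.22 FPKM in Vehicle replicates 1 to 3 and 57.71, 57.52 and 57.10 FPKM in XMU_MP_1 replicates 1 to 3. Every treated library was below every Vehicle library, and the treated libraries lay within 1 FPKM of each other. The log2 change was -1.41 ± 0.0504 (SE, limma adjusted p = 7.32e-09), a fall of 2.69-fold in mean FPKM. The tables give 1 value per gene, so the splice forms of VEGFA, for which the annotation has 32 transcripts, are summed. Exons of VEGFA share 188 bases with the antisense gene AL136131.3, and whether fragments were counted by strand is not given in the sources used here.

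VEGFC (chromosome 4, 176683538 to 176792727) fell more than VEGFA. Its values were 21.56, 23.43 and 21.22 FPKM with Vehicle and 6.73, 6.55 and 6.40 FPKM with XMU_MP_1. The groups were far apart, at 3.36-fold in mean FPKM, with a log2 change of -1.61 ± 0.0601 (limma adjusted p = 9.57e-09). The ratio of VEGFA to VEGFC was 7.28, 6.77 and 6.94 in Vehicle libraries and 8.58, 8.78 and 8.92 in treated libraries, so it was higher in each treated library.

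PGF, the placental growth factor gene (chromosome 14, 74941834 to 74955784), was the lowest of the tested ligands. It measured 1.98, 2.09 and 1.75 FPKM with Vehicle and 0.78, 0.97 and 0.82 FPKM with XMU_MP_1. Its level was above the filter of a mean of 1 FPKM with Vehicle and below it with XMU_MP_1, so it entered the test through the group where it was higher. The log2 change was -0.66 ± 0.0774 (limma adjusted p = 3.55e-05) with a pseudocount of 1 and -1.09 with a pseudocount of 0.1 FPKM. Mean FPKM was 2.26-fold lower, and against a minimum fold of 1.5 the call was lost (adjusted p = 1).

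VEGFB (chromosome 11, 64234538 to 64238793), the VEGF ligand gene not known as a strong driver of vessel growth, did not pass. It was at 39.38, 39.38 and 39.92 FPKM with Vehicle and at 33.49, 37.70 and 41.08 FPKM with XMU_MP_1. XMU_MP_1 replicate 3 lay above all Vehicle libraries and the other two treated libraries below them. The log2 change was -0.08 ± 0.0688 with a 95% interval of -0.235 to 0.069 (limma adjusted p = 0.324). Without XMU_MP_1 replicate 3 it passed as lower (log2 change -0.151, adjusted p = 0.0479), as it did with equal summed FPKM (-0.179, adjusted p = 0.0447) and without the 2 libraries that stood apart (-0.154, adjusted p = 0.0328).

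PDGFB (chromosome 22, 39223359 to 39244751) had the largest change of the 10 genes and the fourth largest fall of all 11151 tested genes. Its FPKM was 24.39, 24.15 and 23.60 in the Vehicle libraries and 2.99, 2.49 and 2.49 in the treated ones. Mean FPKM was 9.05-fold lower, and the highest treated library lay far under the lowest Vehicle library. The log2 change was -2.78 ± 0.0694, with a 95% interval of -2.932 to -2.625 (limma adjusted p = 8.33e-10).

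PDGFC (chromosome 4, 156760454 to 156971394) encodes a latent PDGF that proteases such as the PLAT product activate. It measured 16.37, 16.14 and 15.38 FPKM with Vehicle and 7.50, 8.25 and 7.88 FPKM with XMU_MP_1, with no overlap. It fell 2.03-fold in mean FPKM, with a log2 change of -0.93 ± 0.0601 (limma adjusted p = 4.45e-07).

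PDGFA (chromosome 7, 497258 to 520296), whose product signals through PDGFRA, was the only member that rose. It went from 13.13, 12.43 and 12.79 FPKM in Vehicle libraries to 18.33, 17.51 and 16.93 FPKM in treated libraries. All treated libraries were above all Vehicle libraries, by 1.38-fold in mean FPKM. The log2 change was 0.43 ± 0.0561 (limma adjusted p = 7.87e-05) and 0.352 with equal summed FPKM (adjusted p = 0.0017), and the call was lost against a minimum fold of 1.5 (adjusted p = 1).

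PDGFD (chromosome 11, 103907186 to 104164379) was listed at 0 in all libraries except Vehicle replicate 2, at 0.01 FPKM. ANGPTL4 (chromosome 19, 8363289 to 8374373) was abundant and changed little, with 101.52, 96.88 and 98.00 FPKM with Vehicle and 100.09, 103.42 and 110.16 FPKM with XMU_MP_1. The groups overlapped, and the log2 change of 0.08 ± 0.0538 did not pass (95% interval -0.039 to 0.199, limma adjusted p = 0.225). Its sign turned with equal summed FPKM (-0.016, adjusted p = 0.825). The ratio of VEGFA to ANGPTL4 was 1.5 to 1.64 in Vehicle libraries and 0.518 to 0.577 in treated libraries, so their order turned.

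**Figure D2:**
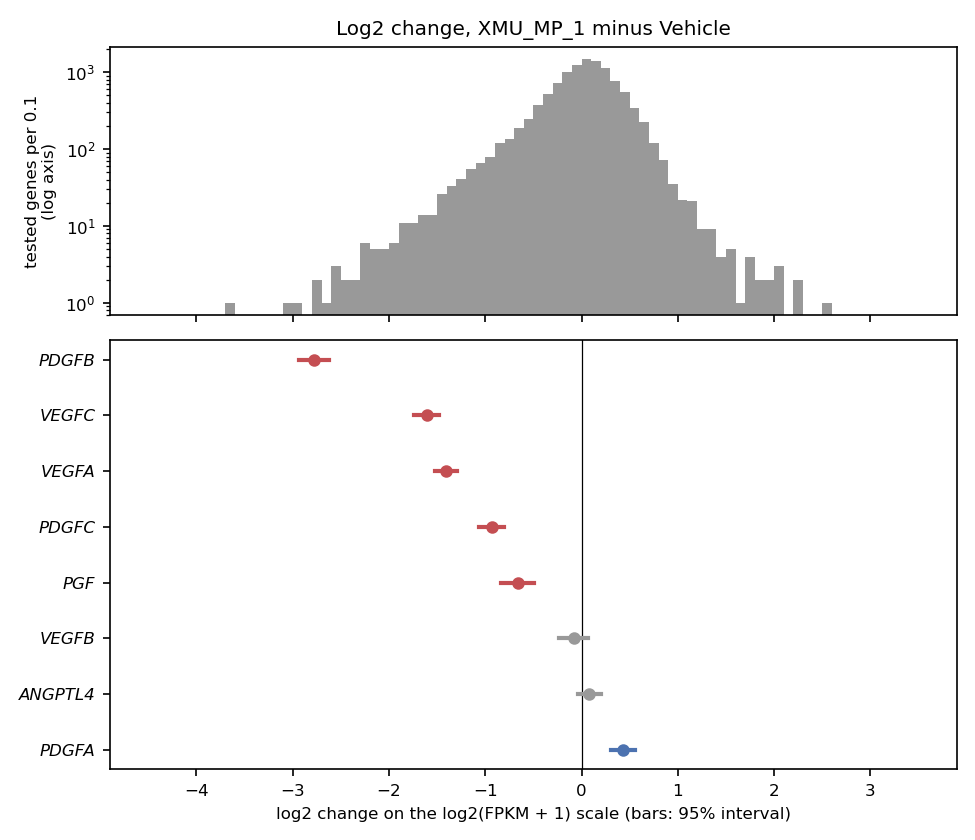
Top, number of tested genes (log axis) by log2 change. Bottom, log2 change (XMU_MP_1 minus Vehicle, log2(FPKM + 1) scale) of the 8 tested genes with 95% intervals, red for lower, blue for higher and grey for genes that did not pass, from PDGFB at -2.78 to PDGFA at 0.43.

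The order of levels changed between the groups. In Vehicle cells the order of mean FPKM was VEGFA at 154.3, ANGPTL4 at 98.8, VEGFB at 39.56, PDGFB at 24.05, VEGFC at 22.07, PDGFC at 15.96, PDGFA at 12.78 and PGF at 1.94. In treated cells ANGPTL4 came first at 104.6, followed by VEGFA at 57.44, VEGFB at 37.42, PDGFA at 17.59, PDGFC at 7.88, VEGFC at 6.56, PDGFB at 2.66 and PGF at 0.857. FLT1 and PDGFD were lowest in both. Of the 9 neighbouring pairs in each order, 0 overlapped between libraries, and PDGFB and VEGFC in Vehicle cells lay close together, at a lowest value of 23.60 and a highest of 23.43 FPKM.

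Summed over VEGFA, VEGFB, VEGFC and PGF, VEGF ligand transcripts were at 217.9 ± 6.93 FPKM with Vehicle and 102.3 ± 3.37 FPKM with XMU_MP_1 (SD, n = 3). VEGFA made up 70.8% ± 0.677 of that sum with Vehicle and 56.2% ± 2.15 with XMU_MP_1, and VEGFB 18.2% ± 0.728 and 36.5% ± 2.53. The share of VEGFC was 10.1% ± 0.343 and 6.42% ± 0.375. VEGFA therefore stayed the main VEGF ligand transcript in both groups, while the share of VEGFB was larger in every treated library.

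The PDGF ligand transcripts changed places. Their sum was 52.8 ± 1.06 FPKM with Vehicle and 28.12 ± 0.768 FPKM with XMU_MP_1. PDGFB, the leading one with 45.5% ± 0.272 of the sum in Vehicle cells, held 9.44% ± 0.827 in treated cells. PDGFA went from 24.2% ± 0.581 to 62.5% ± 0.926, and PDGFC held 30.2% ± 0.468 and 28.0% ± 1.75. The ratio of PDGFA to PDGFB was 0.538, 0.515 and 0.542 in Vehicle libraries and 6.13, 7.03 and 6.80 in treated libraries. Exact permutation tests, two-sided, of 5 such ratios between genes each gave p = 0.1 (adjusted p = 0.1), the smallest value that 3 against 3 libraries allow.

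**Figure D3:**
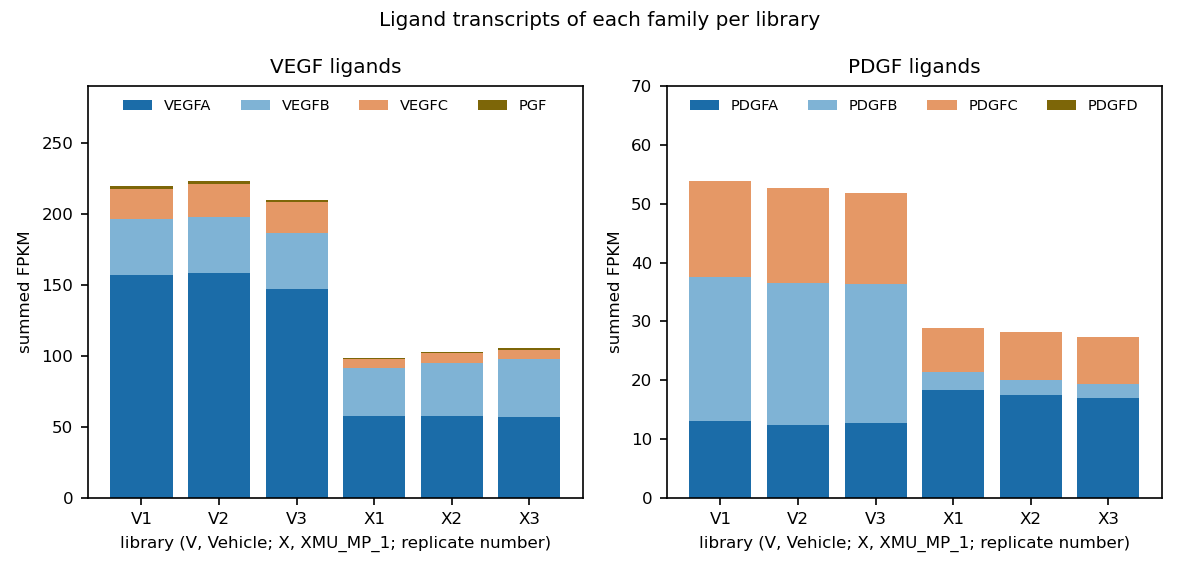
Stacked FPKM (vertical axes from 0) of the VEGF ligand genes (left) and PDGF ligand genes (right) in Vehicle (V) and XMU_MP_1 (X) libraries 1 to 3. The VEGF sum is 98.71 to 105.4 FPKM in treated and 210.1 to 223.5 in Vehicle libraries, and PDGFB is the segment that shrinks most in the PDGF stack.

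Transcripts of the receptors for these ligands were near 0 in these cells. FLT1 (chromosome 13, 28300344 to 28495145), which encodes VEGF receptor 1, was at 0.19, 0.08 and 0.13 FPKM with Vehicle and 0.23, 0.13 and 0.17 FPKM with XMU_MP_1. The groups overlapped, and with no expression filter its log2 change was 0.054 (limma adjusted p = 0.404). KDR, the main signalling receptor for VEGF-A, was at 0.11 to 0.14 FPKM with Vehicle and 0 to 0.03 FPKM with XMU_MP_1, and FLT4, the receptor for VEGF-C, at 0.31 to 0.46 FPKM. PDGFRA was at 0.02 FPKM or below and PDGFRB at 0.15 to 0.23 FPKM with Vehicle and 0.03 to 0.07 FPKM with XMU_MP_1. The co-receptors were the exception, since NRP1 and NRP2 encode neuropilins that bind VEGF and were well expressed. NRP1 fell from 45.01 ± 1.58 to 19.53 ± 1.07 FPKM (log2 change -1.17 ± 0.0565, limma adjusted p = 6.45e-08). NRP2 fell from 55.69 ± 3.44 to 28.1 ± 1.39 FPKM (-0.96 ± 0.0604, adjusted p = 3.68e-07). Of 8 receptor and co-receptor genes only these 2 were high enough to be tested.

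Marker genes of vascular and blood cells were low in both groups. The 7 endothelial markers summed to 1.42 to 1.73 FPKM with Vehicle and 1.19 to 1.65 FPKM with XMU_MP_1, with CDH5 and VWF at 0.01 FPKM in Vehicle replicate 1 and at 0 in all other libraries. Of the 6 mural and fibroblast markers 5 were listed, with sums of 1.22 to 1.54 and 0.95 to 1.33 FPKM. Of 4 leukocyte markers 3 were listed, with sums of 0.37 to 1.01 and 0.6 to 0.99 FPKM. Of the 7 markers of a renal carcinoma line 6 were tested, with 4 lower and 1 higher, or 5 and 0 with equal summed FPKM. Over all tested genes 25.9% were lower and 32.0% higher. PAX8 was at 113.6 and 127.3 FPKM and VIM at 3583 and 3187 FPKM in Vehicle and treated cells, whereas CA9, a HIF target, was at 0.26 FPKM or below.

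Several genes whose products mature these ligands were lower as well. Of 12 proteases and cofactors 11 were tested, and 8 fell and 1 rose, beside 25.9% lower and 32.0% higher of all tested genes. Their median log2 change was -0.31 against 0.04 over all tested genes. CCBE1 and ADAMTS3, which encode a cofactor and the protease that cut VEGF-C to its active form, went from 17.17 ± 0.408 to 7.55 ± 0.333 FPKM and from 3.27 ± 0.193 to 1.98 ± 0.167 FPKM (limma adjusted p = 1.19e-07 and 1.41e-04). PLAT, whose product activates PDGF-C, fell from 5.08 ± 0.29 to 1.78 ± 0.185 FPKM (adjusted p = 5.84e-07). PLAU, the urokinase gene, had a log2 change of -1.87 (adjusted p = 1.14e-09) and the matrix protease gene MMP14 one of -0.65 (adjusted p = 6.54e-06). The gene that rose was PCSK7, a proprotein convertase gene, with a log2 change of 0.27 (adjusted p = 0.00442) that did not pass with equal summed FPKM (0.186, adjusted p = 0.088).

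Other ligands that act on vessels went both ways. Of 21 such genes 20 were in the tables and 16 were tested, with 8 lower and 4 higher, or 8 and 3 with equal summed FPKM. Over all tested genes 25.9% were lower and 32.0% higher. The median log2 change of the 16 genes was -0.17. FGF2, the basic fibroblast growth factor gene, fell from 14.16 ± 0.326 to 6.16 ± 0.668 FPKM and EDN1, the endothelin gene, from 2.77 ± 0.0872 to 0.827 ± 0.196 FPKM. With XMU_MP_1 EDN1 was below the filter of a mean of 1 FPKM, as was MDK (0.85 FPKM), also among the 8 lower. Both entered the test through the Vehicle group, where they were higher. CCN2 and CCN1, matricellular protein genes, rose, with log2 changes of 2.20 and 1.23. The other 7 angiopoietin-like genes in the list, apart from ANGPTL4, were all too low to be tested, with sums of 0.11 to 0.33 FPKM in Vehicle and 0.13 to 0.27 FPKM in treated libraries. Of 12 angiogenesis inhibitors 4 were tested, and 2 fell, beside 25.9% of all tested genes. These were THBS1, the thrombospondin gene, and the protease gene ADAMTS1, with log2 changes of -1.17 and -1.01. In the fit as deposited COL18A1, the source of endostatin, and SPARC did not pass (-0.09 and -0.02), although COL18A1 passed as lower with equal summed FPKM (-0.182, limma adjusted p = 0.0395).

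Known HIF targets other than these members did not share 1 direction. Of 23 listed 19 were tested, with 10 lower and 6 higher and a median log2 change of -0.20. Over all tested genes 25.9% were lower and 32.0% higher. Among these targets the share of rises (6 of 19) was near that of all genes, and the share of falls (10 of 19) was larger. BHLHE41, a transcription repressor gene, had a log2 change of -2.00 and PLIN2, a lipid droplet gene, of -1.61, next to VEGFA at -1.41. ENO2, a glycolytic enolase gene, rose with a log2 change of 0.78, and with equal summed FPKM the counts were 10 lower and 4 higher. Of 9 genes of the HIF pathway 2 fell and 3 rose, near the shares over all tested genes, or 2 and 2 with equal summed FPKM. EPAS1, which encodes the HIF-2 subunit, had a log2 change of -0.10 (limma adjusted p = 0.22). HIF1A had a log2 change of -0.44 (adjusted p = 3.57e-05) and ARNT2, a partner subunit gene, of -0.90 (adjusted p = 5.99e-06). EGLN3 and EGLN2, genes of the prolyl hydroxylases that mark HIF for decay, rose with log2 changes of 0.54 and 0.32. EGLN3 was also counted among the HIF targets.

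**Figure D4:**
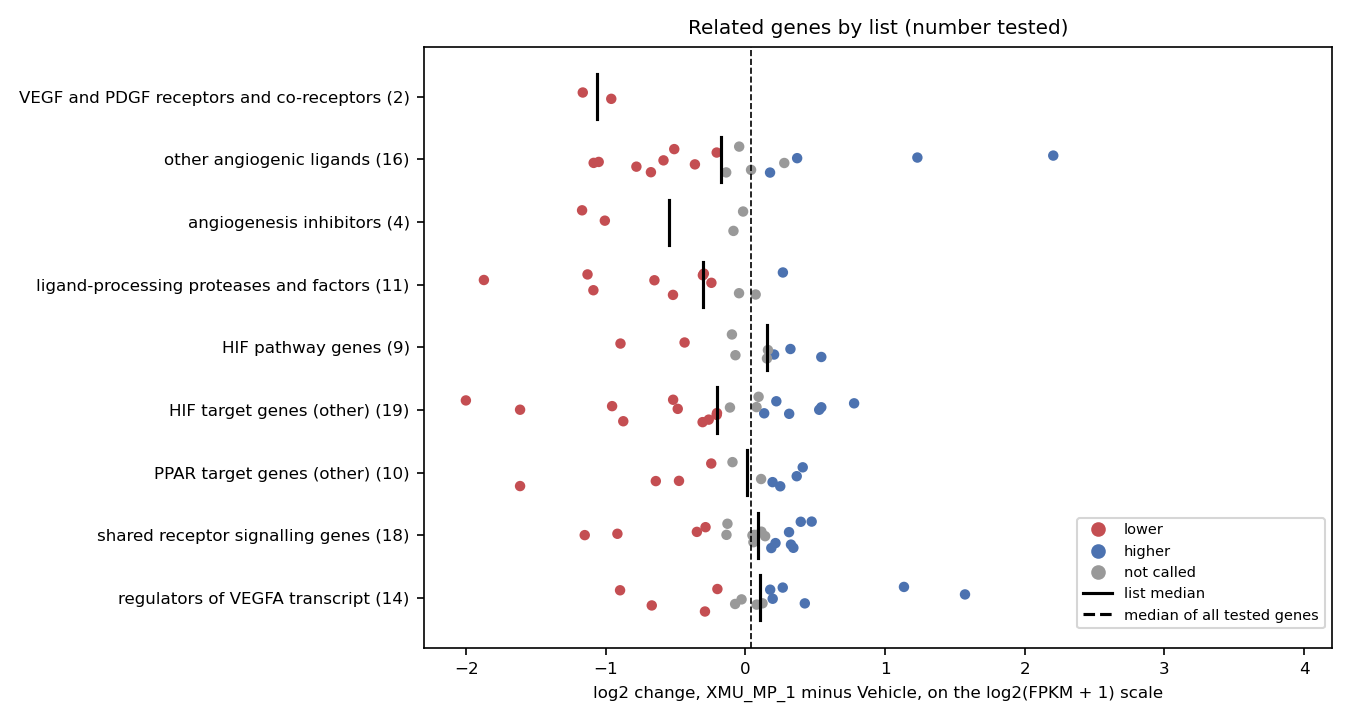
Log2 change (XMU_MP_1 minus Vehicle, log2(FPKM + 1) scale) of each tested gene in lists related to the growth factors, with the number tested in parentheses. Points are genes, red for lower, blue for higher and grey for not passing, solid bars are list medians and the dashed line is the median of all tested genes, 0.04, and the processing genes lie mostly left of it.

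The genes with the most similar profile over the 6 libraries were found by the root mean square distance of mean-centred log2(FPKM + 1), among tested genes averaging 5 FPKM or more. Since the difference between the groups dominates each profile, these are genes with nearly the same log2 change. For PDGFB they included BCL3 and CYP1B1, at distances of 0.105 and 0.119. For VEGFA they were ARHGEF40, TCF7 and ADGRG1, at 0.0339, 0.04 and 0.0437, and for VEGFC they were JADE2, CASTOR1 and FMNL1, at 0.0298, 0.0429 and 0.0464. For PDGFC they were STK10, APBB1IP and LAMB1, for PGF MOB3A, FOSL1 and PLEKHG3, and for PDGFA STXBP3, C2orf69 and RAD1, all at distances of 0.0164 to 0.0392. BCL3 and CYP1B1 were thus farther from PDGFB than the genes named for the other 5 members were from theirs.

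Sequence before the transcription start was read from RefSeq windows (GRCh38.p14) for 7 of the 10 genes, in 11 windows of 250 bases each. Some windows belong to 1 gene with several starts and overlap. VEGFA, PDGFB and PDGFC, which all fell, had no window. Of the windows 4 were of PDGFA, 2 of PGF and 1 of VEGFC. A stretch is shown for genes that fell (VEGFC and PGF), rose (PDGFA) and did not pass (ANGPTL4), each ending before the first base that lies in an exon of a protein-coding gene, though part of that of PDGFA lies in exons annotated to HRAT92. Sequences run 5′ to 3′ on the gene's strand, and capitals mark matches on either strand of the GC box and the HIF core given in the next paragraph and of the CArG box.
VEGFC, chr4:176792923-176793172, minus strand: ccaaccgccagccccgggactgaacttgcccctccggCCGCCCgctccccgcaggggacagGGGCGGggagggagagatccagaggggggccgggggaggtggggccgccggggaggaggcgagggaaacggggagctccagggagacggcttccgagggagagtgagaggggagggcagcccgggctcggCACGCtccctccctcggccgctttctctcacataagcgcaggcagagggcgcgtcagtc
PGF, chr14:74955785-74956014, minus strand: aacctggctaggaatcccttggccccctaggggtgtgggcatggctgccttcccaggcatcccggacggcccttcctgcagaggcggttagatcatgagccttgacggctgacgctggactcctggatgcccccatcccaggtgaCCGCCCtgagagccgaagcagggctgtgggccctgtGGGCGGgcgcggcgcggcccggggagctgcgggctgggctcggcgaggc
PDGFA, chr7:520297-520476, minus strand, the second farthest upstream of 4 starts: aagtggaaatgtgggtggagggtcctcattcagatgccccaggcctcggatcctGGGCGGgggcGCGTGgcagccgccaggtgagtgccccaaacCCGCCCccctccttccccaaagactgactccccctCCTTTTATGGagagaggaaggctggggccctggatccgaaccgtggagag
ANGPTL4, chr19:8363905-8364150, plus strand: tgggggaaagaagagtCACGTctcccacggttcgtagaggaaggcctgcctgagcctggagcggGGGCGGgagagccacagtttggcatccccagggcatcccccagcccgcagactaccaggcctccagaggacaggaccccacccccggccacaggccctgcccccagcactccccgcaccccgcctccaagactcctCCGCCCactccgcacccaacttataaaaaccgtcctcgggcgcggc

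These windows are rich in G and C, from 68.8% to 82.8%, against a median of 58.0% over all 35116 windows of the same length. GGGCGG, the GC box that SP1 binds, was in 11 of 11 windows and in 42.6% of all windows. ACGTG or GCGTG, the core of HIF sites, was in 8 of 11 and in 43.2% of all windows. GGAATG, the core of TEAD sites, was in 0 of 11 and in 11.9% of all windows, and TGANTCA, the AP-1 site, in 0 of 11 and 6.57%. The κB site was in 1 of 11 windows, that of FLT1, and in 5.21% of all windows, and the CArG box in 1 of 11, one of those of PDGFA, and in 1.16%. Motif matches overlap where GC boxes run on, and the part of the windows' base composition in these counts was not tested. The counts do not cover VEGFA, PDGFB or PDGFC, for which no window was available.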

How the data were processed

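Per the labels' protocols, 786-O cells were lysed in Trizol and libraries followed BGISEQ-500 protocols. Each library has 1 table, deposited by the authors, of FPKM to 2 decimals per gene symbol, per the file headers. The submitters' processing notes name GRCh38 as the build. Not given in the sources used here are the aligner, the quantifier, the annotation, the strand setting and any filter. FPKM is relative to the library total, so a few abundant genes can shift all others. Groups came from the treatment part of the titles and replicate numbers from the same titles.

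The filter kept genes averaging 1 FPKM or more across all 6 libraries. Testing used limma 3.58.1 in R 4.3.3 with statmod 1.5.0; log2(FPKM + 1) was fitted on group alone, with robust moderation and a mean-variance trend, two-sided, without rescaling, and p-values were adjusted over all 11151 genes. The fit was tested on simulated data. Ratios were compared with scipy 1.17.1. Gene positions are those of GENCODE release 29. The members and gene lists were chosen with earlier results of these data known, and the lists include genes whose changes were known, so their counts are not independent evidence. The genes named are the members, from each list at most the 4 genes lowest in adjusted p, cell markers, and the 3 genes most alike to each member that passed; a few genes that this rule names are not reported here. ADAMTS3, PCSK7, MDK, SPARC, COL18A1, EPAS1, KDR, FLT4, PDGFRA and PDGFRB, and those of the closing section outside this rule, were chosen after their values were seen. Alternatives changed the pseudocount, the filter, the scaling, the moderation, the replicate block, the libraries used and the minimum fold.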

Additional observations from a re-analysis of the deposited data

How the results depend on the processing

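VEGFA, VEGFC, PDGFB and PDGFC kept their direction and their side of the threshold under all 17 alternatives, with log2 changes of -1.513 to -1.385, -1.769 to -1.551, -3.136 to -2.744 and -1.068 to -0.904. Against a minimum fold of 1.5, PGF (log2 change -0.663) and PDGFA (0.431) no longer passed, and 158 genes were higher and 455 lower in all. PGF was not tested with a mean of at least 5 FPKM. With equal summed FPKM 2252 genes were higher, VEGFB passed as lower (-0.179) and the sign of ANGPTL4 turned (-0.016), while the median of all genes moved from 0.04 to -0.049. VEGFB also passed without the 2 libraries that stood apart (-0.154), an alternative chosen after seeing the data. Leaving out 1 library at a time gave VEGFB -0.151 to -0.007. The replicate number was not taken as a pairing, since the labels give no paired design. Same-numbered libraries had deviations correlated at -0.204, 0.392 and 0.244 and differently numbered ones at -0.461 to 0.344, which does not settle whether libraries were paired. With the replicate number as a block 3956 genes were higher and 3093 lower, against 3567 and 2886 without it. VEGFB stayed at -0.083 (limma adjusted p = 0.224), and no call of a member changed. Averaging the 2 most similar libraries within each group left 2742 genes higher and 2418 lower. Depth is unknown, so counting error at the level of FLT1, PDGFD and PGF could not be given.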

Other observations

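Of 18 tested genes that carry the signal of VEGF and PDGF receptors inside the cell, 7 rose and 4 fell, near the shares over all tested genes (32.0% higher and 25.9% lower), with a median log2 change of 0.09, and with equal summed FPKM 3 rose and 5 fell. RASA1, which encodes a brake on RAS, fell from 30.69 ± 1.08 to 13.32 ± 1.4 FPKM (limma adjusted p = 3.69e-07), and the kinase gene SRC fell from 20.27 ± 0.66 to 10.28 ± 0.777 FPKM (adjusted p = 8.89e-07). The adaptor gene GRB2 rose from 41.2 ± 1.32 to 57.62 ± 1.23 FPKM (adjusted p = 1.55e-05), and SHC1, another adaptor gene, fell with a log2 change of -0.29. GAB1, among the 7 that rose, averaged 0.887 FPKM with Vehicle, below the filter. It entered the test through the XMU_MP_1 group, at 1.37 FPKM.

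Of 14 tested known regulators of the VEGFA transcript, 6 were higher and 4 lower, beside 32.0% and 25.9% of all tested genes as deposited. With equal summed FPKM the counts were 4 and 4. ATF4, a stress-response factor gene known as an activator of VEGFA, rose from 167.1 ± 8.27 to 368.1 ± 17.6 FPKM (limma adjusted p = 1.4e-07). EGR1 rose from 1.84 ± 0.0889 to 7.47 ± 0.777 FPKM (adjusted p = 8.88e-08). ZFP36L1, which encodes a protein that promotes decay of VEGFA mRNA, fell from 193.1 ± 8.97 to 103.2 ± 7.16 FPKM (adjusted p = 9.37e-07), and FOSL1, an AP-1 subunit gene, had a log2 change of -0.67. Whether any of these regulators had a part in the change of VEGFA was not tested. Among 10 tested PPAR targets and receptors other than ANGPTL4, 4 rose and 4 fell, or 3 and 4 with equal summed FPKM. Of all tested genes 32.0% were higher and 25.9% lower. On the log2 scale PLIN2, also counted among the HIF targets, was lower at -1.61, PDK4 at -0.64 and PPARG at -0.48, and PPARD was higher at 0.41.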
